A study of Mus musculus with 4 samples.

Results

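Clstn2-high pericyte-like mural cells of the bleomycin-injured mouse lung were examined in droplet single-cell RNA-seq data. The cells were chosen by their own counts. Among cells with 200 to 7500 detected genes and at most 15% of unique molecular identifiers (UMIs, 1 per captured transcript molecule) from mitochondrial genes, a cell was taken when it had at least 3 UMIs of Clstn2, at least 1 of Pdgfrb and at least 1 of any of Higd1b, Cox4i2 and Ndufa4l2, with none of Ptprc, Cdh5 or Epcam. This rule found 268 cells among 30860 within the limits, or 0.868%, and 32121 cells were deposited. The lungs came from 2 wild-type (WT) and 2 Tubb3-/- mice, littermates of both sexes, 8 to 11 weeks old. The Tubb3-/- mice were homozygous for a Cre knock-in at the translation start of Tubb3, which removes this neuronal-type beta-tubulin in every tissue. All 4 received bleomycin at 0.8 U/kg into the trachea, an injury that leads to lung fibrosis, and were sampled on day 14, so no uninjured lung is part of the comparison. Each mouse gave a whole-cell sample of living lung cells depleted of red cells, and a mural cell-enriched sample. Cells of the 4 mice were tagged and pooled, so that all mice shared 1 library per kind of sample, and the data come as 8 matrices separated by tag. The enriched pool was depleted of CD31, CD45, EpCAM and TER-119 cells and mixed from sorted MCAM+ PDGFRα- and MCAM- fractions, so it sets its own proportions of cell types.

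The whole-cell pool held 30 of the 268 cells, 7 and 11 from the WT mice and 8 and 4 from the Tubb3-/- mice. The enriched pool held the other 238, as 30 and 97 from the WT mice and 51 and 60 from the Tubb3-/- mice. Together WT mouse 1 gave 37 cells, WT mouse 2 gave 108, Tubb3-/- mouse 1 gave 59 and Tubb3-/- mouse 2 gave 64. The median cell held 8276 UMIs, 3232 genes and 3.01% mitochondrial UMIs. Scrublet, a doublet caller, marked 18 of the 268. The 8 matrices held 3202 to 5051 cells each, with median depths of 9186 to 16299 UMIs per cell. Although 59 barcodes occurred in both pools, none of them was one of the 268.

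Pericytes are mural cells that sit within the basement membrane of capillaries and small venules. They depend on PDGF-B from endothelial cells, read by the receptor PDGFRβ, and they can set capillary tone through calcium entry, cyclic nucleotides and contractile proteins. Higd1b, Cox4i2 and Ndufa4l2 encode mitochondrial proteins that mark pericytes in mice. Clstn2 encodes calsyntenin 2, a transmembrane protein of the cadherin superfamily best known from the postsynaptic membrane of neurons. It spans 588.787 kb on the minus strand of chromosome 9 (97444395 to 98033181, mm10).

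The genes of the rule are given as a description, since they chose the cells. The median Clstn2 count was 10 UMIs per cell, with a middle range of 5 to 16.25 and a maximum of 75. The UMIs of a mouse's cells were then summed and scaled to counts per 1000000 UMIs (CPM). On this scale Clstn2 stood at 1079 and 1420 CPM in WT and at 906 and 1128 CPM in Tubb3-/- mice. Pdgfrb stood at 738, 1035, 651 and 1071 CPM in the same order. The rule asked for only 1 of the 3 mitochondrial markers, yet Cox4i2 was detected in 96.6% of the cells, Ndufa4l2 in 93.3% and Higd1b in 85.8%. Of 547 cells with at least 3 Clstn2 UMIs, 279 were not taken: 169 had no Pdgfrb, 220 none of the mitochondrial markers, and 44, 41 and 29 had Ptprc, Cdh5 or Epcam. Just outside the threshold lay 45 cells with 2 Clstn2 UMIs that met the rest of the rule, and just inside it lay 27 cells with 3. Kcnq5 stood at 883 CPM in the former and 1602 CPM in the latter, Trpc6 at 434 and 472 CPM, Higd1b at 365 and 347 CPM and Acta2 at 2394 and 2940 CPM.

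The name was checked against marker lists. All 18 pericyte markers of the list were detected, and the 14 outside the rule summed to 7942 to 13893 CPM over the mice. That sum was 11622 to 16262 CPM in the 236 cells described next and 1207 to 3616 CPM in the other 32, beside 1859 to 2273 CPM in the Clstn2-zero cells used for comparison. In the Clstn2-zero cells with at least 2 Higd1b UMIs it was 6954 to 7705 CPM, so a high sum was not particular to the Clstn2-high cells. Smooth muscle cells, defined by at least 3 Myh11 and 1 Cnn1 UMIs and no UMI of the mitochondrial markers, Clstn2, Ptprc, Cdh5 or Epcam, had 1762 to 2017 CPM of the same 14 genes. Endothelial markers summed to 58.2 to 110 CPM and immune markers to 142 to 215 CPM, beside 58.4 to 70.4 and 112 to 149 CPM in smooth muscle cells, with Cdh5 and Ptprc at 0 by the rule. Epithelial markers summed to 354 to 554 CPM against 299.7 to 651.9 CPM in smooth muscle cells.

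Among the 268, 32 cells (11.9%) went against the name. They had fewer than 5 UMIs of Higd1b, Cox4i2 and Ndufa4l2 together. They numbered 5 and 10 in WT and 10 and 7 in Tubb3-/- mice. Their median depth was 19132 UMIs against 8037.5 in the other 236, so they held 25.5% of all UMIs of the 268. Only 10 of the 32 had at least 3 UMIs of Kcnq5, against 234 of the 236. They contributed 66.7% of the Col1a1 UMIs, 89.8% of those of Lum and 91.6% of those of Msln. Lum encodes the fibroblast proteoglycan lumican, and Msln encodes mesothelin, a surface protein of the mesothelium that lines the lung. At least 3 UMIs of Msln, Upk3b and Wt1 together were found in 14 of the 268 cells, and 13 of these were among the 32. This division was made after the values were seen, and the results below are given with all 268 cells and, where it matters, with the 236 alone.

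Both classes that served for comparison are limited. The first was 3314 cells that met the rest of the rule with no Clstn2 UMI (812 and 492 in the WT mice, 1093 and 917 in Tubb3-/- mice). They went against the pericyte name, since 2636 of them had fewer than 5 UMIs of the mitochondrial markers and their Acta2 level was 6317 ± 465 CPM (SD, n = 4 mice). The 229 of them with at least 2 Higd1b UMIs were therefore taken as a stricter comparison. The second class was the 2996 smooth muscle cells. Depth differed between classes, with medians of 14507.5 UMIs in Clstn2-zero cells and 11752.5 in smooth muscle cells. Counts were summed per mouse and class and fitted with edgeR's quasi-likelihood model with mouse as a block, and a gene is named called when its Benjamini-Hochberg adjusted p is under 0.05. Because the classes were cut by counts of these same cells, the counts of called genes describe the choice and test nothing.

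Against the Clstn2-zero cells, 3672 of 12246 genes were called (30%), with 1789 above (14.6%) and 1883 below (15.4%) in Clstn2-high cells. Adcy8 encodes a calcium-stimulated adenylyl cyclase. Its level was 599 and 1241 CPM in WT, 480 and 869 CPM in Tubb3-/- mice, while the Clstn2-zero cells held 1.08 to 4.84 CPM. Its log2 fold change was 8.40 ± 0.19 (SE). The predicted gene Gm21798 (log2 8.36 ± 0.20) overlaps Adcy8 on the opposite strand of chromosome 15, and reads of such a pair may be split uncertainly.

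Kcnq5 encodes a voltage-gated potassium channel of the M-current family. Its level was 5374 and 7386 CPM in WT and 3805 and 5195 CPM in Tubb3-/- mice. The Clstn2-zero cells held 50.7 to 114 CPM, so the classes were far apart in each mouse, with a log2 fold change of 6.27 ± 0.15. Agtr1a encodes the type 1a angiotensin II receptor, through which angiotensin II constricts vessels. It was at 242, 294, 159 and 244 CPM against 1.86 to 5.84 CPM, a log2 fold change of 5.75 ± 0.23. Gap43 encodes a growth-cone protein of axons, and it was at 371 to 608 CPM against 2.94 to 23.9 CPM (log2 5.80 ± 0.48). Rapgef4 encodes a cyclic AMP-gated exchange factor for Rap GTPases and was at 159 to 355 CPM against 2.32 to 4.99 CPM (log2 5.89 ± 0.15). The remaining 6 of the 12 named genes were Fam162b, Wfdc8, St6galnac3, Cstdc2, Tnfrsf21 and Plxdc1, with log2 fold changes between 6.08 and 7.26. Each of the 12 was called under every alternative in which it had a value.

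The 12 named genes of lowest fold were Hpse2, Pappa2, Ankrd1, P2rx1, Scara5, Timp4, Pcdh9, Ptprz1, Pi16, Tcap, Ly6a and Mustn1, with log2 fold changes from -3.57 to -2.70. Hpse2 encodes heparanase 2, a heparan sulfate-binding protein. It was at 13.1, 28.5, 36.8 and 4.36 CPM, against 178 to 283 CPM in the Clstn2-zero cells. Mustn1, a muscle gene, was at 105 to 144 CPM against 733 to 909 CPM (log2 -2.70 ± 0.11). P2rx1 encodes an ATP-gated cation channel of smooth muscle and was at 0 to 7.87 CPM against 35.6 to 47.2 CPM (log2 -3.22 ± 0.35). Pi16 and Ly6a, both known from adventitial fibroblasts, were not called when the comparison was with the 229 Higd1b-positive Clstn2-zero cells (log2 -0.85 and -0.58). Hpse2, Pcdh9, Ptprz1 and Mustn1 were called lower there too. Pappa2, Ankrd1, P2rx1, Scara5, Timp4 and Tcap did not pass the low-count filter in that comparison and have no value.

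**Figure D1:**
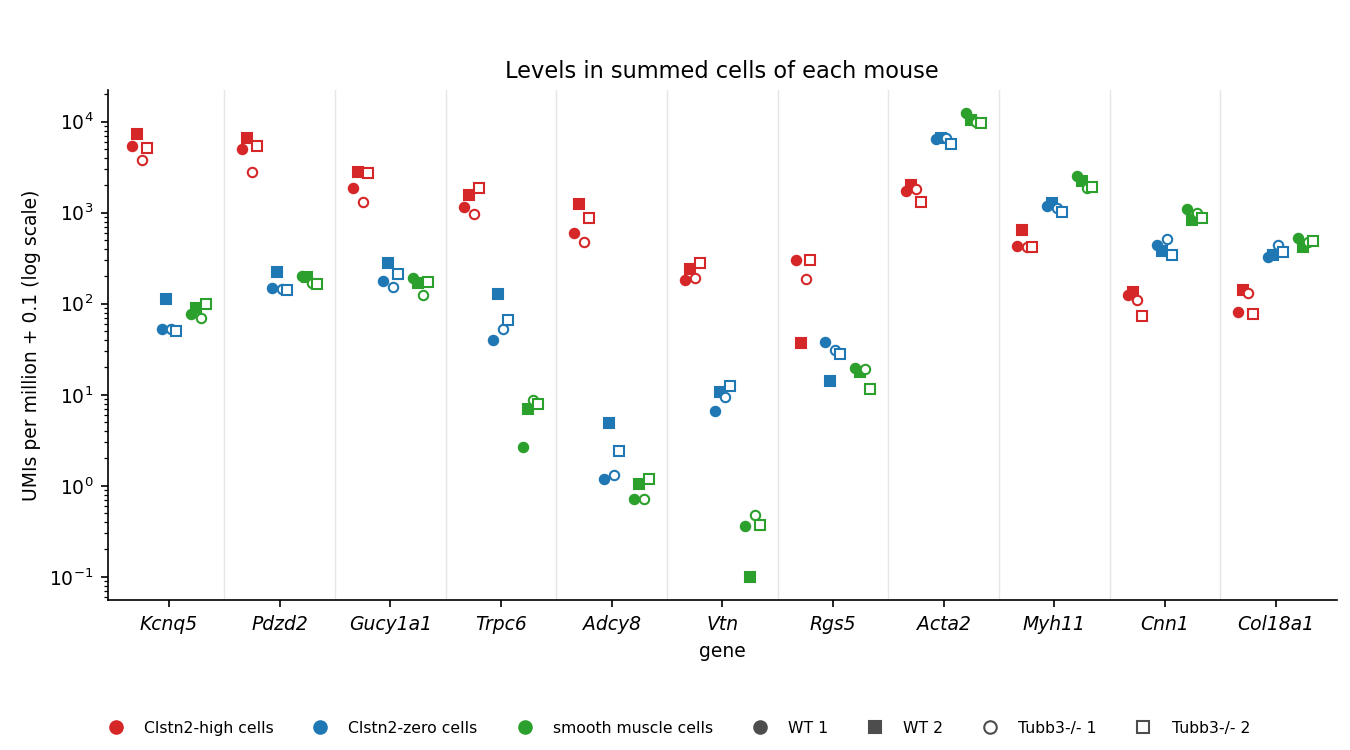
Summed CPM (plus 0.1, log axis) of 11 genes in Clstn2-high cells (red), Clstn2-zero cells (blue) and smooth muscle cells (green), 1 point per mouse, filled for WT and open for Tubb3-/-. Kcnq5 to Vtn are higher and Acta2 to Col18a1 lower in the Clstn2-high cells of all 4 mice, while Rgs5 in WT mouse 2 (37.4 CPM) lies near the Clstn2-zero cells.

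Channels and second messengers of vascular tone went both ways. Of 23 tested, 12 were called higher and 7 lower, and the median log2 fold change was 0.48 against -0.02 over all genes. Trpc6 encodes a receptor-operated calcium entry channel. Trpc6 was at 1160, 1570, 975 and 1848 CPM against 40.0 to 126 CPM (log2 4.26 ± 0.21). The nitric oxide receptor guanylyl cyclase is built from the Gucy1a1 and Gucy1b1 products. Gucy1a1 was at 1859, 2771, 1297 and 2717 CPM against 153 to 283 CPM (log2 3.24 ± 0.12), and Gucy1b1 at 1116 to 1789 CPM against 136 to 206 CPM (log2 3.05 ± 0.11). Pde5a, whose product degrades cyclic GMP, was at 1642 to 3149 CPM against 163 to 286 CPM (log2 3.45 ± 0.11). Prkg1, the cyclic GMP-dependent kinase, had a log2 fold change of 1.49 ± 0.11, and Kcnk3, a background potassium channel, one of 1.80 ± 0.13.

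The subunits of the vascular ATP-sensitive potassium channel, which are classical pericyte markers, went the other way. Kcnj8 was at 16.7 to 47.3 CPM against 40.6 to 51.8 CPM (log2 -1.04 ± 0.23), and Abcc9 at 30.5 to 81.4 CPM against 82.4 to 107 CPM (log2 -0.89 ± 0.21). Against the 229 Higd1b-positive cells neither was called, at log2 0.17 and 0.04. Of the pericyte list as a whole, 14 genes outside the rule were tested, 11 were called higher and 2, these subunits, lower, with a median of 1.78. Rgs5, a regulator of G protein signalling and a common pericyte marker, varied among the mice. It was at 305 and 37.4 CPM in WT and at 187 and 304 CPM in Tubb3-/- mice, against 14.0 to 37.5 CPM. Its log2 fold change was 2.62 ± 0.26 against all Clstn2-zero cells and -0.56 against the Higd1b-positive ones. Vtn, which encodes the adhesive glycoprotein vitronectin, was at 181, 238, 193 and 278 CPM against 6.50 to 12.4 CPM (log2 4.40 ± 0.13), and this fell to 0.70 against the Higd1b-positive cells.

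Receptors for vasoactive ligands were mixed, with 5 of 19 called higher, 6 lower and a median of -0.19. With the 236 cells 6 of 18 were called higher and 9 lower, with a median of -1.15. Ednra, the endothelin A receptor, was at 379 to 612 CPM against 128 to 182 CPM (log2 1.63 ± 0.13). Ednrb, the endothelin B receptor, was at 44.6, 13.8, 1.36 and 5.82 CPM against 33.2 to 51.7 CPM (log2 -1.85 ± 0.41). S1pr3, a sphingosine 1-phosphate receptor, was at 203 to 303 CPM against 42.4 to 66.1 CPM (log2 2.15 ± 0.12). With Agtr1a and P2rx1 this group holds genes of both directions.

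Contractile genes were lower. Of 19 tested, 18 were called lower and none higher, with a median of -1.71. Acta2, smooth muscle actin, was at 1746, 2023, 1805 and 1297 CPM against 5629 to 6629 CPM (log2 -2.01 ± 0.09). Myh11, smooth muscle myosin heavy chain, was at 425 to 642 CPM against 1023 to 1276 CPM (log2 -1.40 ± 0.11). Acta2 UMIs were also found in cells of other types in the same pools. In the enriched pool Acta2 stood at 1870 CPM in the Clstn2-high cells, at 1047 CPM in 346 immune cells and at 1324 CPM in 1125 endothelial cells. In the whole-cell pool it stood at 393, 126 and 196 CPM in the same 3 classes. How far RNA released by other cells adds to Acta2 in the Clstn2-high cells was not tested.

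Matrix genes differed by kind. Of 20 genes of fibrillar and interstitial matrix, 16 were called lower and 1 higher (median -1.001). Their sum was 10921 and 10266 CPM in WT and 22789 and 14964 CPM in Tubb3-/- mice. In the Higd1b-positive Clstn2-zero cells it was 16159, 14685, 19204 and 20365 CPM in the same order, so Tubb3-/- mouse 1 went the other way. Eln, elastin, was at 809, 863, 2772 and 1098 CPM against 3001 to 4878 CPM (log2 -1.75 ± 0.23). The gene called higher was Postn, periostin, at 2087, 2427, 1840 and 3334 CPM against 391 to 629 CPM (log2 2.17 ± 0.17), with a value of 0.18 and no call against the Higd1b-positive cells. Of 19 basement membrane genes, 10 were called higher and 7 lower (median 0.38), and with the 236 cells 9 were called higher and 8 lower, with a median of -0.35. The type IV collagen chains Col4a1 and Col4a2 were at 1448 to 2192 and 1126 to 1460 CPM, against 602 to 893 and 348 to 510 CPM, with log2 fold changes of 1.14 ± 0.09 and 1.44 ± 0.10. Nid2, the linker protein nidogen 2, was at 34.1 to 73.8 CPM against 3.70 to 6.36 CPM (log2 3.25 ± 0.27). Col18a1 and Col15a1, the multiplexin collagens of the basement membrane zone, were lower, at 77.1 to 142 CPM against 329 to 443 CPM (log2 -1.91 ± 0.16) and at 13.1 to 31.3 CPM against 89.8 to 141 CPM (log2 -2.40 ± 0.25).

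Genes of neuronal adhesion were examined because Clstn2 belongs to them. Of 16 tested, 8 were called higher and 4 lower, with a median of 0.35. Cadm1, an immunoglobulin-superfamily adhesion protein, was at 249, 443, 188 and 304 CPM against 2.85 to 12.5 CPM (log2 5.74 ± 0.21). Ntm, neurotrimin, was at 113 to 208 CPM against 1.28 to 3.83 CPM (log2 5.64 ± 0.26). Lrrc4c, a postsynaptic netrin-G ligand, was at 88.6 to 162 CPM against 2.71 to 3.52 CPM (log2 4.98 ± 0.20). Nrxn3, which encodes a presynaptic adhesion protein, was at 72.2 to 297 CPM against 11.3 to 19.1 CPM (log2 3.10 ± 0.32). Ntrk3, the neurotrophin 3 receptor, was at 13.6 to 65.9 CPM against 165 to 211 CPM (log2 -2.66 ± 0.25). Clstn1, the broadly expressed calsyntenin, was at 97.1 to 118 CPM against 60.9 to 74.2 CPM (log2 0.55 ± 0.12).

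In the Notch pathway 7 of 12 genes were called higher and none lower (median 0.58). With the 236 cells 6 of 11 were called higher and 2 lower (median 0.66). Notch3, the Notch receptor of mural cells, was at 561 to 727 CPM against 176 to 241 CPM (log2 1.50 ± 0.12), and Nrarp, a Notch target and feedback inhibitor, at 40.9 to 78.5 CPM against 4.57 to 6.55 CPM (log2 3.04 ± 0.27). Against the Higd1b-positive cells neither was called, at -0.29 and 0.28. Of 28 genes of PDGF, TGF-β and BMP signalling, 5 were called higher and 9 lower (median -0.24), and with the 236 cells 5 higher and 14 lower (median -0.56). Pdgfa, a ligand of PDGFRα, was at 239 to 346 CPM against 81.8 to 112 CPM (log2 1.49 ± 0.14), and Eng, the TGF-β coreceptor endoglin, at 191 to 244 CPM against 53.2 to 62.8 CPM (log2 1.75 ± 0.12). Interferon-responsive genes were called higher in 8 of 26 cases and lower in 3 (median 0.48). Iigp1, an interferon-induced GTPase, was at 176 to 317 CPM against 111 to 172 CPM, and Cxcl10, an interferon-induced chemokine, at 17.7 to 108 CPM against 88.7 to 127 CPM. The highest of these Cxcl10 values, of WT mouse 1, rested on 41 UMIs, 40 of them in the cells of few markers, and in the 236 cells it was 3.92 CPM.

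Immediate-early genes, which also respond to tissue dissociation, were called lower in 17 of 20 cases and higher in none (median -0.65). Their sum was 21463.5 and 16334 CPM in WT and 13886 and 11391 CPM in Tubb3-/- mice. In the Higd1b-positive Clstn2-zero cells it was 21849, 26175, 13435 and 15466 CPM in the same order, so the classes were not apart in every mouse. Fos was at 3150, 2429, 1956 and 1697 CPM against 2933 to 3904 CPM (log2 -0.71 ± 0.10). Single cells spread widely in this group, with quartiles of 39.5, 106 and 217 UMIs per 10000 UMIs of the cell. Cell cycle genes were called lower in 3 of 15 cases and higher in none. A list of genes taken from the text of the study had 1 of 10 called higher and 6 lower, and it is no independent evidence of direction. Of 12 tubulin genes, Tubb4a and Tuba1a were called higher and Tubb6 and Tuba1c lower. Tubb4a was at 62.7 to 121 CPM against 27.0 to 44.6 CPM, and Tubb6 at 27.5 to 39.4 CPM against 70.1 to 94.2 CPM.

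Several group counts moved with the 32 cells of few markers. Mesothelial markers were called higher in 6 of 6 cases with all 268 cells (median 2.81) and in none of 6 with the 236 (median -0.05). Their sum was 432 to 2830 CPM in the 32 cells and 43.1 to 69.5 CPM in the 236, beside 43.2 to 97.4 CPM in the Clstn2-zero cells. Of the other lists of foreign cell types, 3 of 7 endothelial markers were called higher and 1 lower, 1 of 6 epithelial markers higher and 1 lower, none of 6 immune markers and the 1 Schwann cell marker tested either way. The 3 erythroid genes tested were called lower, with a summed level of 17.4 to 20.4 CPM against up to 1711 CPM in the Clstn2-zero cells of 1 mouse. Fibroblast markers were called lower in 8 of 15 cases with all cells and in 13 of 15, with 1 higher, without the 32. Their sum was 2486 to 5185 CPM in the 268 and 1281 to 3160 CPM in the 236. It was 5616 to 7069 CPM in all Clstn2-zero cells but 2306 to 3122 CPM in the Higd1b-positive ones. Over all genes the 236 gave 4673 calls of 12008 tested (38.9%), with 16.2% higher and 22.7% lower. The counts of contractile genes (17 lower of 19), fibrillar matrix (17 lower and 1 higher of 20) and channels (12 higher and 9 lower of 23) were close to those above.

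**Figure D2:**
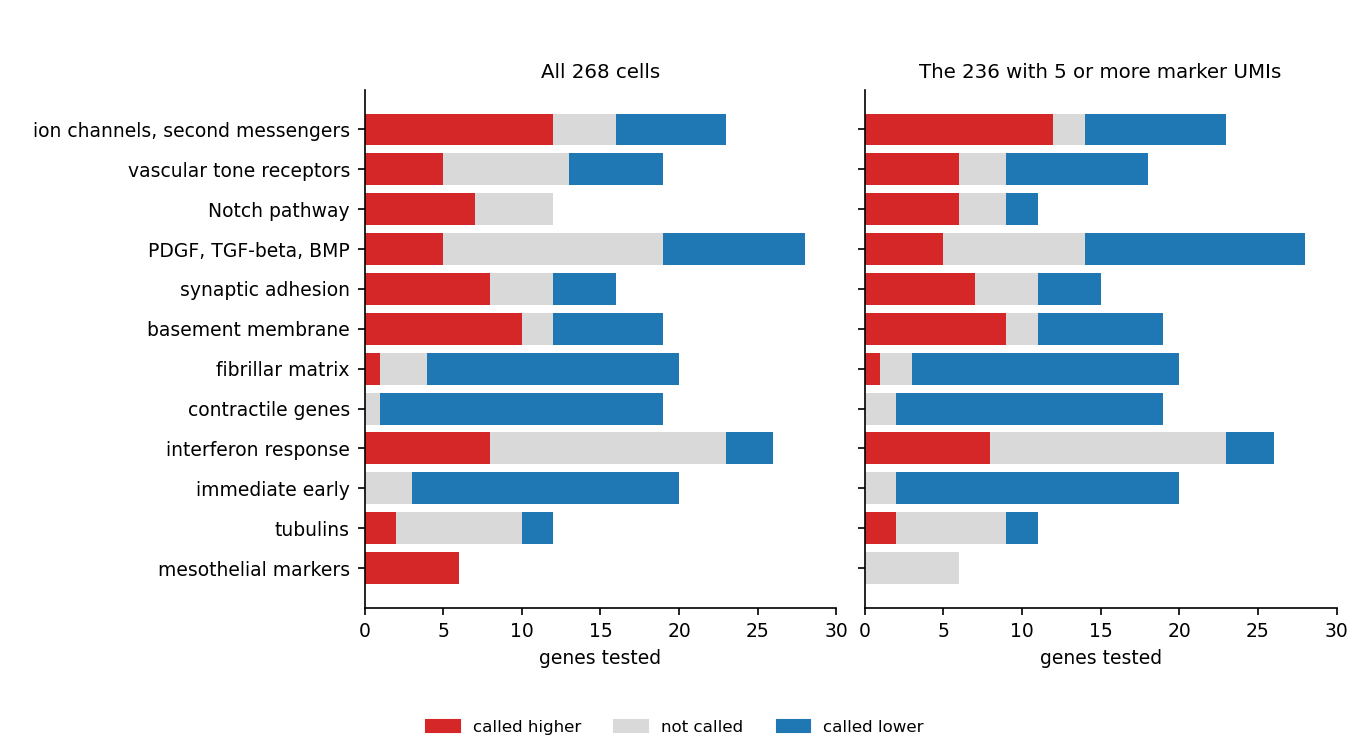
Number of genes per list called higher (red), called lower (blue) or not called (grey) in Clstn2-high against Clstn2-zero cells by edgeR's quasi-likelihood model, with all 268 cells on the left and the 236 with at least 5 mitochondrial marker UMIs on the right. Contractile, fibrillar matrix and immediate-early genes are mostly blue on both sides, and the 6 mesothelial markers are red only on the left.

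Against the 229 Higd1b-positive Clstn2-zero cells, 1368 of 8079 genes were called (16.9%), 727 higher (9%) and 641 lower (7.93%). This set of cells had Acta2 at 3690 to 7056.5 CPM and Higd1b at 422 to 516 CPM, against 661 to 1316 CPM in the Clstn2-high cells. The log2 fold change was 5.03 for Adcy8, 3.56 for Kcnq5, 5.98 for Ntm, 4.60 for Cadm1, 2.51 for Agtr1a and 1.98 for Gap43. It was 1.07 for Gucy1a1 and 0.97 for Trpc6. In CPM, Trpc6 stood at 475, 1192, 541 and 641 in these cells, and Kcnq5 at 257, 1026, 472 and 271, so WT mouse 2 was high for both.

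Called genes differed in length. Genes called higher spanned a median of 51.6 kb, genes called lower 22.7 kb and all genes tested 25.7 kb. Malat1, a nuclear long non-coding RNA, was at 37824 to 43913 CPM in the Clstn2-high cells, 21016 to 22969 CPM in the Clstn2-zero cells and 29781.5 to 42463.5 CPM in the Higd1b-positive ones. Whether intronic reads were counted is not stated in the sources used here, and the part of gene length or nuclear RNA in these differences was not tested.

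Against smooth muscle cells, 4018 of 12002 genes were called (33.5%), 16.4% higher and 17.1% lower. Fam162b was at 215 to 447 CPM against 0.153 to 0.354 CPM (log2 9.92 ± 0.19). Vtn was listed with 3, 0, 5 and 3 UMIs in all smooth muscle cells of the mice, and its log2 fold change was 9.47 ± 0.26. Trpc6 was at 2.56 to 8.65 CPM in smooth muscle cells (log2 7.63 ± 0.28), Agtr1a at 0.884 to 1.41 CPM (log2 7.34 ± 0.19) and Gap43 at 0.619 to 1.65 CPM (log2 8.79 ± 0.19). Adcy8, Gm21798, Card9, Wfdc8, Pde8b, St6galnac3 and Gm32014, which overlaps Trpc6 on the opposite strand, complete the 12 named genes of highest fold. Among those of lowest fold, Mrvi1, a cyclic GMP kinase substrate of smooth muscle, was at 7.88 to 24.6 CPM against 141 to 189 CPM (log2 -3.51 ± 0.20), and Myom1, a sarcomere protein, at 17.4 to 82.6 CPM against 348 to 452 CPM (log2 -3.45 ± 0.29). The others were Hpse2, Ankrd1, Ptprz1, Slc16a7, Tcap, P2rx1, Rbm24, Pappa2, Itih4 and the globin gene Hbb-bs. Hbb-bs rested on 2 mice, with 627 and 324 CPM in the smooth muscle cells of WT mouse 2 and Tubb3-/- mouse 1 and at most 13.4 CPM in those of the other mice. All 17 contractile genes tested were called lower (median -2.44), with Acta2 at 9707 to 12400 CPM in smooth muscle cells. Channels and second messengers were called higher in 13 of 23 cases and lower in 9, and interferon-responsive genes higher in 14 of 25 and lower in 1.

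The levels also moved along the Clstn2 count of the single cells, given here as a description because Clstn2 set the bins. Kcnq5 stood at 59.5 CPM in cells with no Clstn2 UMI, at 349 and 883 CPM with 1 and 2, and at 10651 CPM in the 25 cells with 25 or more. Adcy8 went from 1.93 to 1429 CPM over the same bins and Trpc6 from 62.6 to 2147 CPM. Vtn stayed between 130 and 296 CPM from 2 Clstn2 UMIs upward. Hpse2 went from 221 CPM to 0, and Acta2 from 6295 to 859 CPM without a steady order between. Msln stood at 253 to 332 CPM in the bins from 3 to 6 UMIs and at 7.04 to 95.6 CPM above. The bins differ in depth, with median cells of 16236.5 UMIs at 1 Clstn2 UMI and 9615 at 25 or more, and cells with fewer than 5 mitochondrial marker UMIs made up 59 of 104 and 1 of 25.

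**Figure D3:**
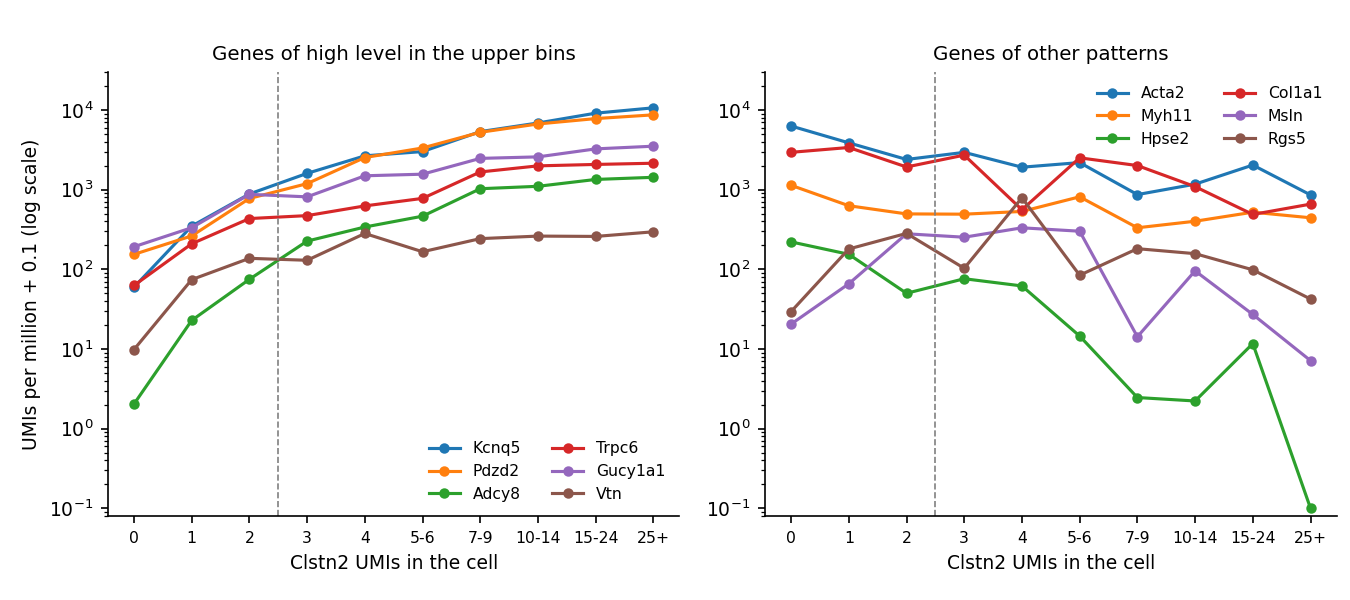
Summed CPM (plus 0.1, log axis) of 12 genes in cells that met the rest of the rule, by the number of Clstn2 UMIs in the cell, with the threshold of 3 as a dashed line. Kcnq5, Pdzd2, Adcy8, Trpc6 and Gucy1a1 are highest in the last bin, and Hpse2 is at 0 there.

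Detection per cell was compared after thinning each cell to 3000 UMIs, which left out 11 of the 268 cells, 11 of the Clstn2-zero cells and 24 of the smooth muscle cells. Kcnq5 was then detected in 90.7% of Clstn2-high cells (92.9% unthinned), 8.81% of Clstn2-zero cells and 12.9% of smooth muscle cells. Immune cells, defined by Ptprc without Pdgfrb, held it in 14.6%. In smooth muscle cells the share was above that of the immune cells in WT mouse 2 and Tubb3-/- mouse 2 and below it in the other mice. Endothelial cells of the whole-cell pool held Kcnq5 in 3.29% of unthinned cells (6.92 CPM), against 21.4% (89.0 CPM) of the immune cells there. Trpc6 was detected in 86.8% of Clstn2-high cells (90.7% unthinned) and in 0.181% of immune cells. Adcy8 was detected in 76.3% (84.0% unthinned) against 0.103%. Rgs5 was detected in 14.8% (22.8% unthinned), at 21.2% and 2.91% in WT and 26.3% and 20.3% in Tubb3-/- mice, against 0.232% of immune cells. Acta2 was detected in 78.2% (92.5% unthinned) against 19.0% of immune cells, and Col1a1 in 74.7% (89.9% unthinned) against 19.5%. Most immune cells (7830 of 8176) were of the whole-cell pool, and most Clstn2-high cells (238 of 268) of the enriched pool. Within the enriched pool, unthinned, Acta2 was detected in 97.9% of Clstn2-high and 98.3% of immune cells, and Col1a1 in 91.2% and 89.0%. Their median depths there were 8595 and 13987.5 UMIs. In the whole-cell pool the shares were 50.0% and 42.9% for Acta2 and 80.0% and 42.8% for Col1a1. Cxcl10, at 6.61% (15.3% unthinned), was near its share of 5.07% in immune cells of both pools. It was detected in 11.9% of Clstn2-zero cells and 9.89% of smooth muscle cells. Unthinned in the enriched pool, its shares were 16.4% of Clstn2-high and 32.1% of immune cells. The immune cells had a median depth of 9963.5 UMIs before thinning.

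The pools gave different levels for some genes within the Clstn2-high cells. Kcnq5 stood at 8705 CPM in the 30 cells of the whole-cell pool and at 5380 CPM in the 238 of the enriched pool, and Pdzd2, which encodes a PDZ-domain protein, at 9659 and 4735 CPM. Acta2 stood at 393 and 1870 CPM, with at least 1 UMI in 50.0% and 97.9% of the cells, and Col1a1 at 309 and 1596 CPM. The lung epithelial gene Scgb1a1 stood at 972 and 86.4 CPM and the macrophage gene Lyz2 at 495 and 74.8 CPM, and immune and endothelial cells of the whole-cell pool held 6596 and 7823 CPM of Scgb1a1. In the 236 cells the Kcnq5 levels were 8443 and 7180 CPM.

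Shares of Clstn2-high cells were compared between genotypes over mice. Among all cells that met the rest of the rule, they made up 4.19% (95% Wilson interval 3.05 to 5.72) and 17.4% (14.7 to 20.6) in the WT mice, and 4.89% (3.81 to 6.26) and 6.26% (4.93 to 7.92) in Tubb3-/- mice. WT mouse 2 stood above the other 3 mice. The means were 10.8% ± 9.38 (SD, n = 2) and 5.58% ± 0.969 (SD, n = 2), a difference of -5.24 points (exact two-sided permutation test, p = 1, smallest p possible 0.33). Without WT mouse 2 the difference turned to 1.39 points. As a share of all cells, they made up 0.279% ± 0.104 of the WT and 0.154% ± 0.0535 of the Tubb3-/- whole-cell matrices (exact permutation test, p = 0.33), and 1.77% ± 1.44 and 1.21% ± 0.208 of the enriched matrices (exact permutation test, p = 1). The enriched difference of -0.565 points became 0.452 without WT mouse 2. Intervals cover counting error only, and 2 mice per genotype allow no p under 0.05.

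**Figure D4:**
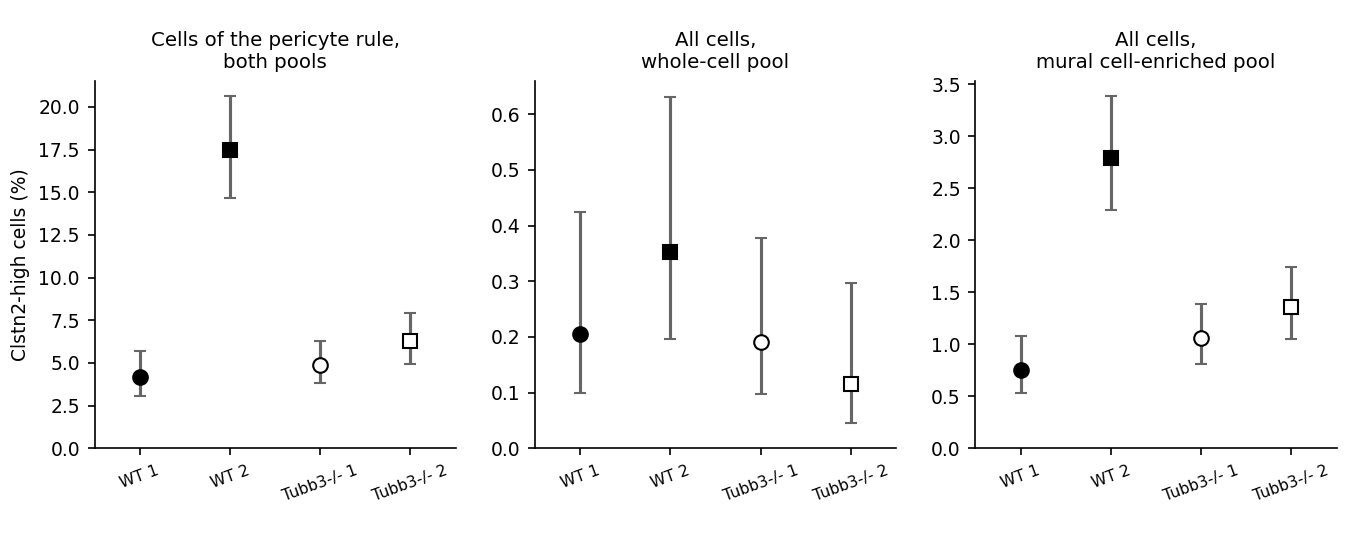
Clstn2-high cells as a percentage of all cells that met the rest of the rule (left) and of all cells of the whole-cell (middle) and enriched (right) pools, 1 point per mouse, with 95% Wilson intervals for counting error. WT mouse 2 is highest in each panel and the other 3 mice overlap in their intervals.

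The genotype comparison used values that the rule did not. Tubb3 itself had 5 and 3 UMIs in the Clstn2-high cells of the WT mice and 0 and 0 in those of the Tubb3-/- mice. In the larger Clstn2-zero class it had 136 and 64 UMIs (10.5 and 9.12 CPM) in WT animals and 19 and 26 UMIs (0.917 and 1.61 CPM) in Tubb3-/- mice, in the direction of the labels. No Cre UMI was found in the 268 cells. The methods of the study name mm10 and mention no added Cre sequence, so this does not show that the transcript was absent.

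Between the genotypes, 0 of 8387 genes were called in the Clstn2-high cells by edgeR's quasi-likelihood test (0% of those tested), while 535 had an unadjusted p under 0.05 and DESeq2 called 13 (0.155%). In simulated data of this size the test called 82.1% of genes changed by log2 2 and 10.8% of those changed by log2 1. Changes of log2 1 thus mostly went uncalled in the simulated data. The simulation gave all genes the same spread between mice, set in advance and not estimated from these data. Its rates need not hold here, least of all for genes that vary more. In the data Kcnd2 at log2 -8.05 and Prr16 at 5.04 were not called (adjusted p = 0.206 and 0.236 by edgeR). In the 236 cells Kcnd2 was at 0 CPM in every mouse, so its UMIs lay in the cells of few markers. Prr16 was there at log2 4.44 (adjusted p = 0.187 by edgeR). The lowest p belonged to Lum, named after its value was seen, at 15.8 and 25.6 CPM in WT and 439 and 244 CPM in Tubb3-/- mice (log2 3.98 ± 0.40, adjusted p = 0.0727). It was called in 7 of 14 alternatives. Of these 7, 4 leave out a mouse, so that 1 genotype has a single mouse assumed to vary like the pair of the other. It was not called in the remaining 7 alternatives, among them the enriched pool alone and the set without Scrublet-marked cells. With the 236 cells its log2 fold change was -0.10. Of 20 fibrillar matrix genes, 13 had an unadjusted p under 0.05 with a higher Tubb3-/- value and none with a lower one, beside 535 of 8387 genes in either direction, and none was called. Of 14 fibroblast markers, 6 had an unadjusted p under 0.05 with a higher Tubb3-/- value and 1 with a lower one (median 0.91), and none was called. Fibroblast markers summed to 2901 and 2486 CPM in WT and 5185 and 3284 CPM in Tubb3-/- mice, and their part in the matrix values was not tested. Col1a1 was at 612 and 718 CPM in WT and 2891 and 1631 CPM in Tubb3-/- mice (log2 1.80 ± 0.31, adjusted p = 0.319). In the 236 cells it was at 372 and 390 against 1344 and 632 CPM (log2 1.37, adjusted p = 0.323 by edgeR). Tubb3-/- values of Col1a1 were also above the WT values in Clstn2-zero cells, at 3244 and 3305 against 2675 and 1703 CPM, and in smooth muscle cells, at 2446 and 1915 against 1112 and 974 CPM. In the enriched pool Col1a1 stood at 483 CPM in immune cells and 818 CPM in endothelial cells, against 710 CPM in the Clstn2-high cells of the 236, and the part of released RNA in the difference was not tested. Values of the genotypes did not overlap for 3014 genes (35.9%), 18.4% with the Tubb3-/- mice higher and 17.5% with them lower.

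Immediate-early genes had 8 of 20 with an unadjusted p under 0.05 and a lower Tubb3-/- value, beside 535 of 8387 genes in either direction, and none was called. Egr1, a zinc-finger factor of this group, was at 1701 and 1421 CPM in WT and 864 and 824 CPM in Tubb3-/- mice (log2 -0.86 ± 0.21, adjusted p = 0.54 by edgeR). The sum of the list was also lower in Tubb3-/- mice in the other classes. It was 18337 and 17787 against 24068.5 and 23482 CPM in Clstn2-zero cells. In their Higd1b-positive part it was 13435 and 15466 against 21849 and 26175 CPM, and in smooth muscle cells 19699 and 19207 against 26304 and 22810 CPM. Of 6 mesothelial markers, 5 had an unadjusted p under 0.05 with a lower Tubb3-/- value, beside the same 535 of 8387 genes. In the 236 cells none of the 6 passed the filter on low counts. None of 14 pericyte markers had an unadjusted p under 0.05. Kcnq5, at the levels given above, had a log2 fold change of -0.48 ± 0.25 (adjusted p = 0.861), Acta2 one of -0.25 ± 0.24 (adjusted p = 0.924), which was 0.30 in the 236 cells, and Rgs5 one of 0.62 ± 0.75 (adjusted p = 0.943), all by edgeR. The Rgs5 value moved with single mice, to 2.75 without WT mouse 1 and to -0.33 without WT mouse 2. The former was called, in a fit whose WT arm is 1 mouse assumed to vary like the Tubb3-/- pair. Xist was low in both replicate 1 mice and high in both replicate 2 mice (5.25 and 25.9 against 674 and 680 CPM), so each genotype holds both kinds.

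**Figure D5:**
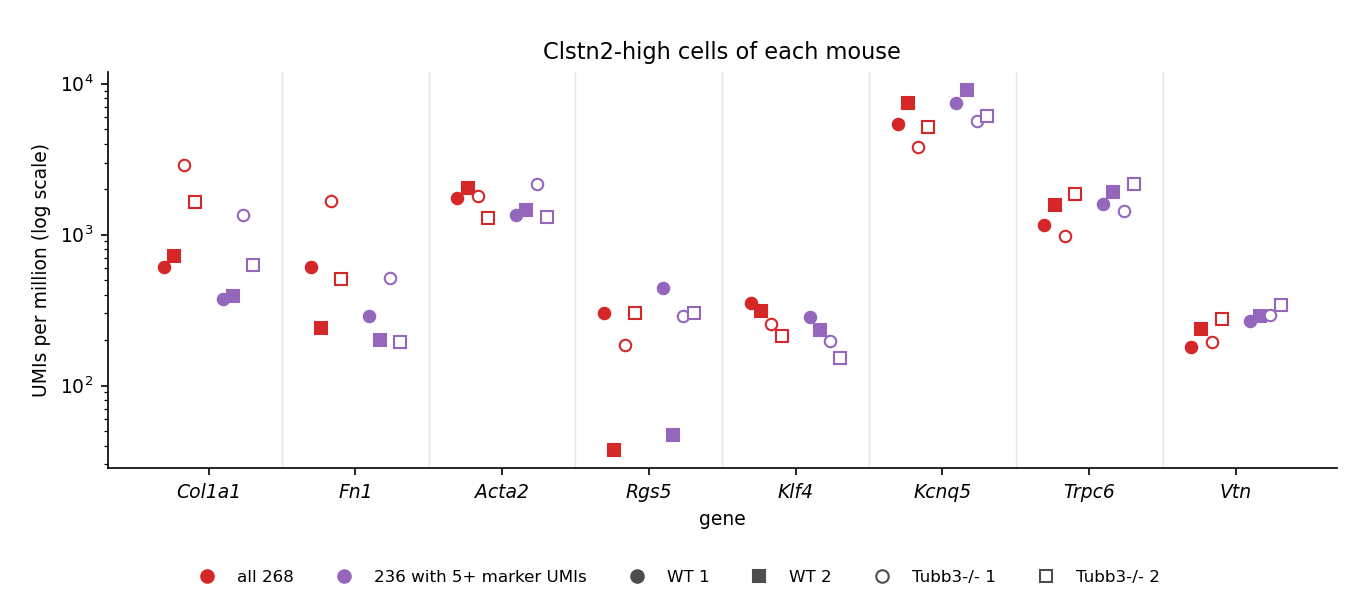
Summed CPM (log axis) of 8 genes in the Clstn2-high cells of each mouse, with all 268 cells in red and the 236 with at least 5 mitochondrial marker UMIs in purple, filled for WT and open for Tubb3-/-. Col1a1 is higher in both Tubb3-/- mice in both sets, and Rgs5 is lowest in WT mouse 2 at 37.4 CPM.

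The change with genotype was also set against that in the Clstn2-zero cells as an interaction. By edgeR's quasi-likelihood test 0 of 13328 genes were called (0%), 610 had an unadjusted p under 0.05 and DESeq2 called 6 (0.045%). With the 236 cells, 13 of 12962 were called (0.1%), 8 higher (0.0617%) and 5 lower (0.0386%). The simulated data, with the same spread between mice for all genes, gave 37.4% of interactions of log2 2 and none of log2 1. Even there only large interactions were found.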

How the data were processed

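The authors deposited UMI counts per gene and cell as 8 matrices made with Cell Ranger 7.1.0 on mm10 (the submitters' processing notes). Whether intronic reads were counted is not given in the sources used here. The 4 mice were pooled per kind of sample, and genotype and mouse of each matrix come from the tag that led in 99.9% to 100% of its cells, through the assignment of tags in the labels' protocol. Each mouse is 1 replicate. The edgeR p-values between genotypes rest on the spread between mice of a genotype. Those between classes and of the interaction rest on how the difference between classes varies over the mice. Cells of 200 to 7500 genes and at most 15% mitochondrial UMIs were kept, and matrices held 41462258 to 95036340 gene UMIs. The members and gene lists were chosen with earlier results of these data known. UMIs were summed per mouse and class and fitted with edgeR 4.0.16 (R 4.3.3) under TMM scaling and its default low-count filter, adjusting p by Benjamini-Hochberg across every tested gene and a threshold of 0.05. Class comparisons had mouse as a block, since both classes come from the same mice. Printed levels are counts per 1000000 UMIs (CPM) without TMM scaling, and 3′ counting allows no comparison of levels between genes. Named genes were up to 12 called genes per direction with the largest fold, a mean of at least 20 CPM and 1 direction in every mouse, and examples of the lists. Thinning drew 3000 UMIs per cell. Scrublet (scanpy 1.11.5) marked 2 whole-cell barcodes at its automatic threshold, so the threshold of the enriched pool was used for both, and marked cells stayed in except in an alternative. Simulated counts had the same spread between mice for all genes, set in advance, and no shift shared by the classes of a mouse. Their rates are therefore no measure of power in these data. In them the fits called 38.8% and 86.6% of genes changed by log2 1 and 2 between Clstn2-high and Clstn2-zero cells (12127 genes). Against smooth muscle cells they called 36.1% and 92.6% (11889 genes). Alternatives were DESeq2 1.42.0, RLE scaling, no low-count filter, single pools or genotypes, thinned depth, doublets, other Clstn2 and mitochondrial limits, each mouse left out and, after the data were seen, the 236 cells and the Higd1b-positive comparison.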

Additional observations from a re-analysis of the deposited data

How the results depend on the processing

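The called counts are limited by 2 mice per genotype, by unequal depth of the classes and by comparison cells that are poor in pericyte markers. Between Clstn2-high and Clstn2-zero cells, 3672 genes were called. The count was 2197 after thinning cells of 10000 to 30000 UMIs to 10000, 1562 with the Tubb3-/- mice only, 1368 against the Higd1b-positive cells and 1756 with the whole-cell pool only. Against smooth muscle cells 4018 genes were called, with 2638 after the same thinning and 2095 with the Tubb3-/- mice only. Between genotypes 0 genes were called, with 13 by DESeq2, 214 without the low-count filter, and 3 to 118 when a mouse was left out, where the lone mouse is assumed to vary like the other pair (69 without WT mouse 1, 35 without WT mouse 2, 3 without Tubb3-/- mouse 1 and 118 without Tubb3-/- mouse 2). With replicate number as a block it was 45, of which 27 were higher and 18 lower. The numbers are shared by 2 pairs only, and the deviations of same-numbered mice correlated at 0.14. No label ties same-numbered mice to a litter or batch, although Xist levels are alike within each number, so the main comparison has no block. For the interaction 0 genes were called, with 6 by DESeq2, 127 without the filter, 13 with the 236 cells and 0 to 297 when a mouse was left out (297 without Tubb3-/- mouse 2). The cause of these differences was not tested. Against the Higd1b-positive cells the log2 fold change was 0.043 for Abcc9, 0.17 for Kcnj8, -0.29 for Notch3 and -0.56 for Rgs5. Iigp1 was at -1.44 in the whole-cell pool. With the 236 cells Msln was at -0.34 against Clstn2-zero cells and -1.47 against smooth muscle cells. Between genotypes Acta2 was at 0.20 without Scrublet-marked cells and 0.30 with the 236, Lum at -0.10 with the 236, and Rgs5 at -1.10 with at least 5 Clstn2 UMIs and -0.33 without WT mouse 2, against 2.75 without WT mouse 1. The share among cells of the rule differed by -11.9 to 1.39 points and that in the enriched pool by -1.58 to 0.452 points when a mouse was left out.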
